A study of Rattus norvegicus with 16 samples.

Results

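Integrin subunits, collagens and laminins, together with fibronectin (*Fn1*), vitronectin (*Vtn*) and *Sparc*, were examined in PCCl3 cells, a differentiated rat thyroid follicular line, after silencing of the transcription factor *Pax8*. Members were the genes with an array probe whose RefSeq identifier belongs to a rat symbol that starts with Itga, Itgb, Lama, Lamb, Lamc or Col and a digit, plus the 3 glycoproteins. This gave 23 genes with 29 probes among 8899 named genes, and 68 further symbols of this kind have no probe named through RefSeq and were not analysed here. The 23 genes are 10 integrin subunits, 8 collagen chains, the laminin chain *Lamb2*, the 3 glycoproteins and *Itgb3bp*. *Itgb3bp* encodes a nuclear and centromere protein that binds an integrin tail, so it meets the naming rule without being an integrin subunit.

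Cells were grown with thyrotropin, insulin and donor calf serum and collected 48 h after transfection. The si*Pax8* cells received an siRNA against *Pax8* at 10 ng/ml, the siScramble cells a scrambled siRNA at the same dose, both by lipofection, and the wild type (wt) cells received no siRNA. RNA of si*Pax8* cells was hybridized to 2-colour arrays together with RNA of wt cells on 8 arrays, and together with RNA of siScramble cells on another 8. Each comparison had 4 replicates, labelled as biological, and each was run with the dyes both ways round. The labels do not say whether replicates were separate cultures, so p-values measure the spread between these samples. The sources used here differ on the wt cells, calling them treated with the lipid reagent alone in one place and not transfected in another. In either case the comparison with wt cells differs in the presence of any siRNA as well as in *Pax8*, and these cannot be told apart there. Both comparisons use si*Pax8* samples that the study's scheme draws as shared, so they are not independent of each other.

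Integrins are receptors made of 1 alpha and 1 beta subunit that join the cytoskeleton to the extracellular matrix. Thyroid follicular cells form a polarized epithelium whose basal side rests on a basement membrane, a sheet built mainly of type IV collagen and laminin. Fibrillar collagens, fibronectin and vitronectin belong to the matrix beneath it, and *Sparc* is a secreted protein that binds collagen and influences cell shape and adhesion.

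The array measured 13 of the 23 genes. A probe counted as measured when the scanner software marked it well above background in at least 16 of the 32 channel measurements (16 arrays, 2 dyes), and 11 genes had every probe in use above background in all 32. *Col23a1*, with 20 channels, lay just inside this limit, and *Col2a1*, whose brighter probe reached 15, lay just outside. The collagen chains *Col11a2*, *Col3a1* and *Col5a3* were not measured either, with 8, 0 and 0 channels above background. Among the integrins, *Itgae* was above background in 0 channels, as were the leukocyte subunits *Itgal* and *Itgam*. *Itgad*, also a leukocyte subunit, and *Itgb3*, which forms a vitronectin receptor, reached 1 channel each. *Vtn*, a ligand of that receptor, was above background in 0 of 32. For these 10 genes no ratio is given, because none of their probes reached the limit of 16 channels.

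**Figure D1:**
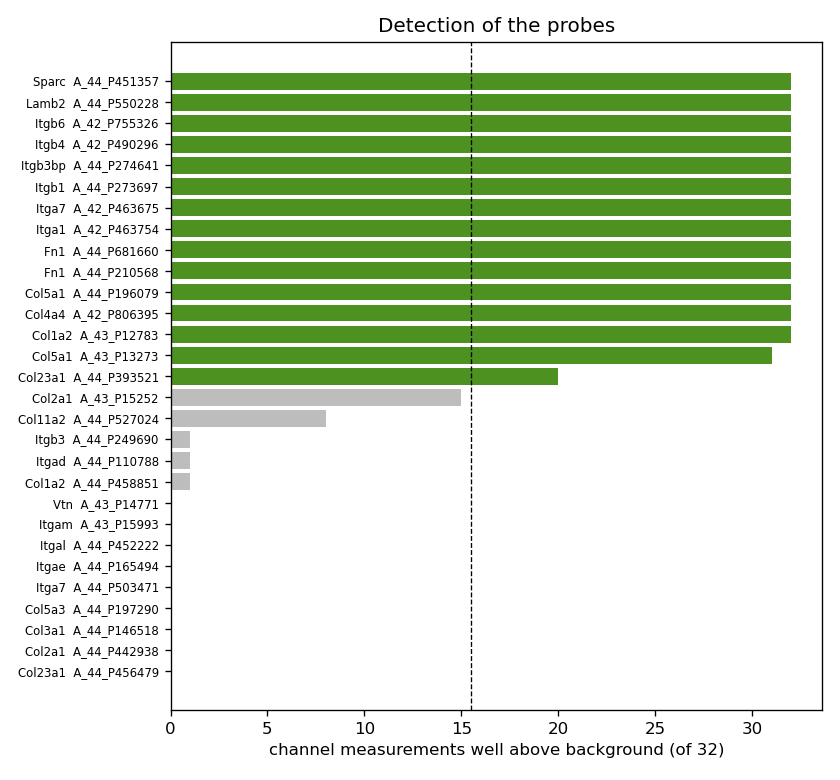
Number of the 32 channel measurements in which each of the 29 probes was well above background, with the gene and the probe name on the vertical axis. The dashed line marks the limit of 16, the 15 green bars are the probes used, and grey bars or empty lines are probes below the limit.

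Ratios are given as log2 of si*Pax8* over control, the mean of 4 replicates ± SD, with each replicate being the mean of its 2 dye orientations. Differences were tested with limma across all 21817 features (named genes and unnamed probes), and a gene was called when its Benjamini-Hochberg adjusted p was below 0.005, the threshold of the study's methods. In bulk RNA, fewer cells of a kind and less RNA per cell cannot be told apart. The targeted gene, *Pax8*, had log2 ratios of -0.84, -0.57, -0.59 and -0.26 over wt in replicates 1 to 4, and of -0.58, -0.29, -0.12 and -0.01 over siScramble. All were below 0, with replicate 4 nearest to 0 in both comparisons. The mean was -0.56 ± 0.24 over wt (limma adjusted p = 0.000302) and -0.25 ± 0.25 over siScramble, where *Pax8* did not pass the threshold (limma adjusted p = 0.0956).

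Against wt cells, the basement membrane chains *Col4a4* and *Lamb2* and the collagen-binding *Sparc* were higher in si*Pax8* cells, at 1.28 to 1.48 times the wt level. The integrin subunits *Itga1*, *Itgb4* and *Itgb6* were lower, at 68.4% to 74.4% of wt, and the fibrillar collagen chain *Col5a1* was lower at 86.9%. Thus 7 of 13 measured genes were called, 3 higher and 4 lower, beside 26.4% of all features and 31% of all named genes. Against siScramble cells, *Col4a4*, *Lamb2*, *Sparc* and *Fn1* were higher, at 1.27 to 1.47 times the control, and *Itgb4* was lower at 80.2%. These are 5 of 13 genes, beside 3.25% of all features and 5.23% of all named genes. *Col4a4*, *Lamb2*, *Sparc* and *Itgb4* were called in the same direction against both controls. The median log2 ratio of the 13 genes was -0.03 over wt and 0.04 over siScramble, and that of all features was -0.01 in each comparison. The median absolute log2 ratio was 0.2 and 0.15 for the 13 genes and 0.1 and 0.06 for all features.

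**Figure D2:**
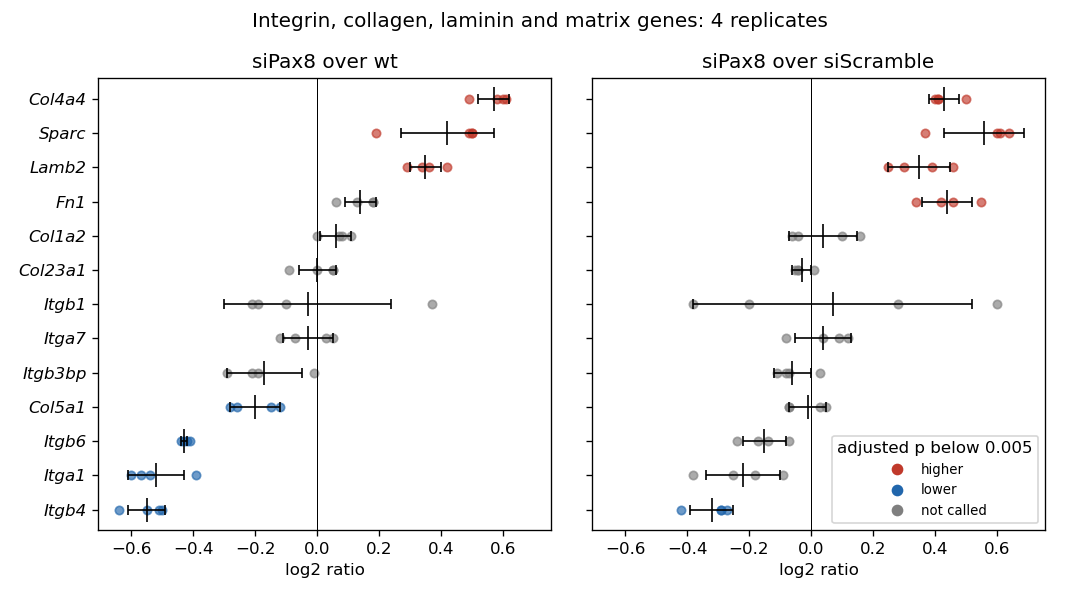
Log2 ratio of si*Pax8* over wt (left) and over siScramble (right) for the 13 measured genes, with a point for each of 4 replicates, a vertical mark at the mean and a horizontal bar of 1 SD to each side. Colours show the call at an adjusted p below 0.005. *Sparc*, *Col4a4* and *Lamb2* lie to the right of 0 and *Itgb4* to the left in both panels, and the points of *Itgb1* spread over both sides.

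Of the integrins, *Itgb4* was the only one called against both controls. It pairs with *Itga6* to form the laminin receptor of hemidesmosomes, the junctions that fix an epithelium to its basement membrane. Its log2 ratios over wt were -0.51, -0.55, -0.5 and -0.64 in replicates 1 to 4, and over siScramble -0.29, -0.29, -0.42 and -0.27. Every replicate was below 0 in both comparisons, and the replicates of the 2 comparisons did not overlap. The direct test between the comparisons gave -0.23 and did not call *Itgb4* (limma adjusted p = 0.0101). Its mean log2 ratio in each comparison follows. The mean was -0.55 ± 0.06 over wt (limma adjusted p = 5.66e-06, 4 of 4 replicates lower). Over siScramble it was -0.32 ± 0.07 (limma adjusted p = 0.00234, 4 of 4 lower), a call that was lost when any 1 replicate was left out (limma adjusted p = 0.00656 to 0.0192). The arrays carrying si*Pax8* in Cy3 gave -0.16 by themselves, which was not called either (limma adjusted p = 0.0254).

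*Itga1* pairs with *Itgb1* to form a receptor for collagens, type IV among them. Its log2 ratios over wt were -0.39, -0.54, -0.57 and -0.6 in replicates 1 to 4, all clearly below 0, with a mean of -0.52 ± 0.09 (limma adjusted p = 1.49e-05), or 69.6% of the wt level. Over siScramble they were -0.09, -0.18, -0.25 and -0.38, also all below 0 but closer to it. Their mean of -0.22 ± 0.12 did not pass the threshold (limma adjusted p = 0.0246), with a 95% confidence interval of -0.34 to -0.11. The ratio of *Itga1* moved with the dye. Over wt it was -0.71 with si*Pax8* in Cy5 and -0.33 with si*Pax8* in Cy3, where it missed the threshold (limma adjusted p = 0.00833). Over siScramble the same values were -0.44 and -0.01. Each mean holds 4 arrays of either orientation, so a dye effect of equal size in both cancels in it.

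*Itgb6* is an epithelial subunit that pairs with *Itgav* and binds fibronectin and latent TGF-beta. It had the tightest replicates over wt among the 13 genes, with log2 ratios of -0.44, -0.41, -0.42 and -0.43 and a mean of -0.43 ± 0.01 (limma adjusted p = 1.16e-05). Over siScramble the replicates were -0.14, -0.07, -0.24 and -0.17, none of them as low as any replicate over wt. The mean there was -0.15 ± 0.07 and was not called (limma adjusted p = 0.034, 95% confidence interval -0.24 to -0.07). The signal of *Itgb6* was low, with a log2 intensity of 7.31 in si*Pax8* and 7.73 in wt, beside 6.69 in both for *Col23a1*. The size of its ratio depended on the processing. With the scanner software's processed signals it was -0.83 over wt and -0.35 over siScramble, with the same calls. The direct test between the comparisons gave -0.27 (limma adjusted p = 0.00249), so the gene was lower against wt than against siScramble by more than the replicate spread.

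The other integrin subunits were not called. *Itgb1*, the shared beta subunit of many matrix receptors, gave -0.1, -0.19, -0.21 and 0.37 over wt and -0.38, -0.2, 0.28 and 0.6 over siScramble. Replicate 4 was the highest in both comparisons, and the signs were mixed. The SD of 0.27 and 0.45 was the widest of the 13 genes in each comparison, and the 95% confidence intervals of the mean were -0.22 to 0.16 and -0.27 to 0.42, so the arrays set only wide limits on a change of *Itgb1*. *Itga7*, which pairs with *Itgb1* as a laminin receptor, was bounded more closely, at -0.03 ± 0.08 over wt (95% confidence interval -0.12 to 0.06) and 0.04 ± 0.09 over siScramble (-0.05 to 0.14). Its signal was low, with a log2 intensity of 7.54 in si*Pax8* and 7.57 in wt. Another *Itga7* probe was above background in 0 of 32 channels, which limits what these intervals show. *Itgb3bp* had a log2 ratio of -0.17 ± 0.12 over wt (limma adjusted p = 0.0136) and -0.06 ± 0.06 over siScramble (limma adjusted p = 0.353), neither of which passed.

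*Lamb2* was the only laminin chain with a named probe. It encodes the beta chain of laminins found in the basement membranes of the renal glomerulus and the neuromuscular junction, among others. Its log2 ratios were 0.36, 0.42, 0.29 and 0.34 over wt and 0.39, 0.46, 0.3 and 0.25 over siScramble, above 0 in every replicate and overlapping between the comparisons. The means were 0.35 ± 0.05 over wt (limma adjusted p = 6.41e-05) and 0.35 ± 0.1 over siScramble (limma adjusted p = 0.00298). The difference between the comparisons was 0 with a 95% confidence interval of -0.12 to 0.12. The siScramble call was lost without replicate 1, 2 or 3 (limma adjusted p = 0.013, 0.0203 and 0.0173). By slide, its ratio over siScramble ran from 0.11 to 0.52.

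*Col4a4* encodes a chain of the type IV collagen network that it forms with *Col4a3* and *Col4a5*, best known from the basement membrane of the kidney. It had the largest log2 ratio over wt of the 13 genes in the upward direction, with 0.61, 0.49, 0.58 and 0.6 in replicates 1 to 4. Over siScramble the values were 0.41, 0.5, 0.41 and 0.4, again above 0 in every replicate. The mean of 0.57 ± 0.05 over wt (limma adjusted p = 3.7e-06) corresponds to 1.48-fold, and that of 0.43 ± 0.05 over siScramble (limma adjusted p = 0.000456) to 1.35-fold. Without replicate 2 or 3 the siScramble value was 0.41 or 0.44 and missed the threshold (limma adjusted p = 0.00612 and 0.00558). The difference between the comparisons was 0.14 and was not called (limma adjusted p = 0.0563).

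The other collagens moved less. *Col5a1*, a chain of the type V collagen that starts and limits fibrils, was measured by 2 probes and had log2 ratios over wt of -0.26, -0.28, -0.15 and -0.12, all below 0. The mean was -0.2 ± 0.08 (limma adjusted p = 0.00274), and the call was lost when any 1 replicate was left out (limma adjusted p = 0.00577 to 0.0197). With the scanner software's processed signals the mean over wt was -0.42, also called. Over siScramble its mean was -0.01 ± 0.06 (limma adjusted p = 0.833), where the 2 probes differed in sign (-0.05 and 0.02). *Col1a2*, a chain of type I collagen, had log2 ratios of 0.06 ± 0.05 over wt (95% confidence interval -0.02 to 0.14) and 0.04 ± 0.11 over siScramble (-0.07 to 0.15). With the scanner software's processed signals its mean over wt was 0.23, above the interval given for wt (limma adjusted p = 0.0528). *Col23a1*, a transmembrane collagen, had 0 ± 0.06 (95% confidence interval -0.08 to 0.09) and -0.03 ± 0.03 (-0.1 to 0.04). Neither was called, and the weak signals of both limit what their ratios can show. The log2 intensity of *Col1a2* was 7.12 in si*Pax8* and 7.05 in wt, and its other probe was above background in 1 of 32 channels.

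Among the secreted glycoproteins, *Sparc* had log2 ratios over wt of 0.19, 0.5, 0.49 and 0.5 in replicates 1 to 4, and over siScramble of 0.37, 0.64, 0.6 and 0.61. Every value was above 0, and replicate 1 was the lowest in both comparisons. The mean was 0.42 ± 0.15 over wt (limma adjusted p = 0.000261) and 0.56 ± 0.13 over siScramble (limma adjusted p = 0.00084), or 1.34-fold and 1.47-fold. With si*Pax8* in Cy5 the log2 ratio over wt was 0.58 and with si*Pax8* in Cy3 it was 0.26, and the Cy3 arrays alone did not pass (limma adjusted p = 0.0541). The siScramble call was lost without replicate 2 or 3 (limma adjusted p = 0.00875 and 0.00987).

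*Fn1* differed between the controls. Its log2 ratios over wt were 0.06, 0.13, 0.18 and 0.18, and over siScramble 0.42, 0.46, 0.34 and 0.55, so the lowest value over siScramble lay above the highest over wt. The mean over wt was 0.14 ± 0.05 and was not called (limma adjusted p = 0.0121, 95% confidence interval 0.06 to 0.22). Over siScramble it was 0.44 ± 0.08 (limma adjusted p = 0.000887), or 1.36-fold, and it missed the threshold without replicate 2 or 3 (limma adjusted p = 0.0105 and 0.00505). The test between the comparisons gave -0.3 (limma adjusted p = 0.00295). The 2 *Fn1* probes gave 0.04 and 0.24 over wt and 0.41 and 0.48 over siScramble.

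Across the 13 genes, the test between the comparisons called 2, *Fn1* and *Itgb6*, beside 5.91% of all features. With the replicate block, which pairs replicates of the same number, it called 3, adding *Itga1* (-0.3, limma adjusted p = 0.00138, against 0.0116 without the block). Without the block, 0 of 13 were called in each of the 4 fits that left out 1 replicate (limma adjusted p for *Fn1* 0.0107 to 0.0294 and for *Itgb6* 0.0124 to 0.0224).

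**Figure D3:**
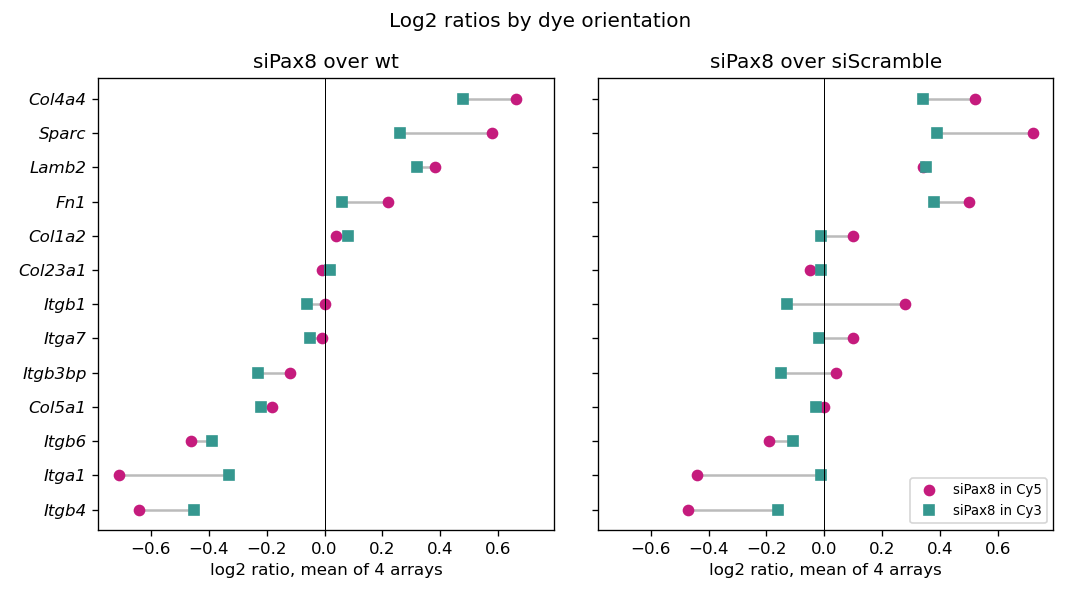
Log2 ratio of si*Pax8* over wt (left) and over siScramble (right) by dye orientation, where a circle is the mean of the 4 arrays with si*Pax8* in Cy5 and a square that of the 4 arrays with si*Pax8* in Cy3. For *Itga1*, *Itgb4*, *Itgb6*, *Sparc*, *Col4a4* and *Fn1* the circle lies farther from 0 than the square in both panels. *Lamb2* over siScramble was 0.34 and 0.35.

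Promoter windows were taken from RefSeq for the assembly GRCr8, each reaching from 250 bases before a gene's start to 50 after it, and 9 of the 13 measured genes matched an entry. The 100 bases before the start are printed 5′ to 3′ on the gene's strand for 4 genes that changed, 2 higher against both controls and 2 lower against wt, and for *Itgb1*, which was not called and has the most GC boxes of the 9. Capitals mark GGGCGG on either strand.
Col4a4 (chr9:91323578-91323677, minus strand): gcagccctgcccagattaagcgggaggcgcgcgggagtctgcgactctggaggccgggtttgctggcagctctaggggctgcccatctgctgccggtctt
Sparc (chr10:40038817-40038916, minus strand): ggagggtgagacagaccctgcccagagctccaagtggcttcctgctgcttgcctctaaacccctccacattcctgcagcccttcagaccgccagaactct
Itga1 (chr2:48545284-48545383, minus strand): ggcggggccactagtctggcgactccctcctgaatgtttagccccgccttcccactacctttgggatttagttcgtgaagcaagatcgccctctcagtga
Itgb6 (chr3:65530334-65530433, minus strand): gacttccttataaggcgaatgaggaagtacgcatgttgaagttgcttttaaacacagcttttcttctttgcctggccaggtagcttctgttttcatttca
Itgb1 (chr19:73602177-73602276, plus strand): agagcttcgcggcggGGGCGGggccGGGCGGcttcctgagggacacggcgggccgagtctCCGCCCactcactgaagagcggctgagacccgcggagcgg

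In the 250 bases before the start, the GC content was 66.4% for *Col4a4*, 60% for *Sparc*, 54.4% for *Itga1*, 43.2% for *Itgb6* and 71.2% for *Itgb1*, with a median of 51.2% over all 33469 windows. The GC box GGGCGG, the letters that Sp1 binds, was found on either strand in 3 of the 9 windows (*Col23a1*, *Col5a1* and *Itgb1*), beside 30.5% of all windows. CGTGAC, letters found within many sites bound by paired domains such as that of *Pax8*, was found on either strand in 1 of 9, that of *Col1a2*, beside 6.73% of all windows. The AP-1 letters TGAGTCA were found in 0 of 9, beside 4.05%. These matches describe the windows alone, and a window with 0 matches says only that those letters are not in it.

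The genes around the matrix receptors were read from lists of their partners. Of the basement membrane partners, 4 of 17 listed genes were measured. Against wt 0 were higher and 1 was lower, a share of 25% beside 26.4% of all features. The lower gene was the tetraspanin *Cd151*, which binds laminin receptors (log2 ratio -0.39 ± 0.04). Over siScramble 0 of the 4 were called by limma, beside 3.25% of all features, and *Cd151* was at -0.05 ± 0.09. An unadjusted limma p below 0.05 was seen there for 3 of the 4, beside 6557 of all 21817 features. The list median was 0.01 over wt and 0.15 over siScramble.

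Of the other matrix glycoproteins and proteoglycans, 10 of 32 were measured. Against wt 4 were higher and 1 was lower, a share of 50% beside 26.4% of all features. The largest were the collagen-binding *Fmod* (0.58 ± 0.11) and the matricellular *Ccn1* (0.51 ± 0.13) and *Ccn2* (0.46 ± 0.07). *Fbn1*, the microfibril protein, was also higher (0.17 ± 0.01), and *Spp1*, an integrin ligand, was lower (-0.31 ± 0.05). Over siScramble 3 were higher and 0 lower, a share of 30% beside 3.25% of all features. The 3 were *Fmod* (0.67 ± 0.06), *Ccn2* (0.36 ± 0.03) and the proteoglycan *Bgn* (0.43 ± 0.1). *Fbn1*, *Spp1* and *Bgn* were chosen for naming after their values were seen.

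Of the genes of collagen synthesis and cross-linking, 9 of 25 were measured, and 33.3% of these were called against wt, beside 26.4% of all features. Against wt, *P4ha1*, the catalytic subunit of a prolyl hydroxylase, rose by 0.63 ± 0.07 and *Plod1*, a lysyl hydroxylase, by 0.37 ± 0.06, whereas *Fkbp10*, a collagen chaperone, was lower (-0.32 ± 0.1). Over siScramble 0 of the 9 passed in limma, with *P4ha1* at 0.2 ± 0.06 and *Plod1* at 0.25 ± 0.06 (limma adjusted p = 0.0118 and 0.00569). An unadjusted limma p below 0.05 was seen there for 4 of the 9, beside 6557 of all 21817 features. The difference of *P4ha1* between the comparisons was 0.43 (limma adjusted p = 0.000278).

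Of the matrix proteases and inhibitors, 12 of 32 were measured, 1 higher and 2 lower against wt, a share of 25% beside the 26.4% of all features. The metalloproteinase inhibitor *Timp2* rose by 0.76 ± 0.07, a larger ratio than that of any of the 13 genes, and the metalloproteinases *Mmp11* (-0.23 ± 0.05) and *Mmp24* (-0.23 ± 0.05) were lower. Over siScramble *Timp2* (0.39 ± 0.13) and the membrane-bound *Mmp14* (0.49 ± 0.06) were higher, a share of 16.7% beside 3.25% of all features. Of the integrin-linked adhesion machinery, 14 of 34 were measured, with *Cd47* higher (0.37 ± 0.04) and the tetraspanins *Cd81* (-0.34 ± 0.19) and *Cd82* (-0.28 ± 0.07) lower against wt, a share of 21.4% beside the same 26.4%. Over siScramble *Cd47* (0.32 ± 0.05) and the docking protein *Nedd9* (0.24 ± 0.05) were higher and 0 were lower, a share of 14.3% beside the same 3.25%. The adhesion kinases *Ptk2*, *Ilk* and *Src* were not called in either comparison. *Mmp14*, *Nedd9* and these kinases were chosen after their values were seen.

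**Figure D4:**
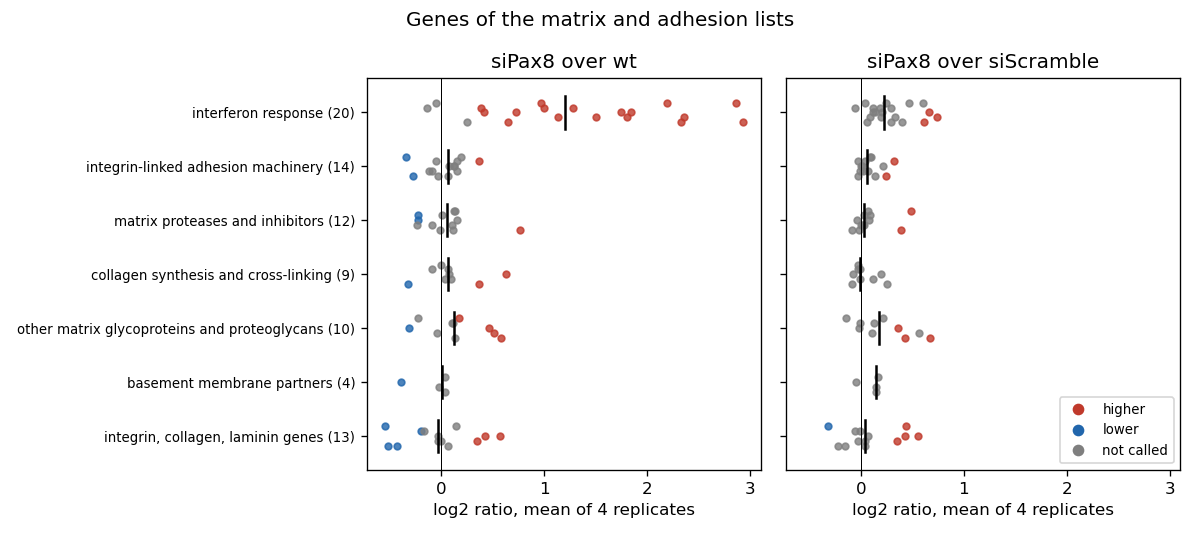
Log2 ratio, the mean of 4 replicates, of every measured gene of each list against wt (left) and siScramble (right), with the number of measured genes in brackets, a black line at the list median and colours for the call at an adjusted p below 0.005. The interferon list has medians of 1.21 and 0.22, and the medians of the other lists shown lie between -0.03 and 0.18.

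Other signals moved together with these comparisons. Of 20 measured interferon response genes, 17 were higher over wt (median log2 ratio 1.21) and 3 over siScramble (median 0.22). The shares called were 85% and 15%, beside 26.4% and 3.25% of all features. The part of these genes in the matrix genes was not tested. Of 12 measured thyroid follicular markers, 8 were lower and 2 (*Slc26a4* and *Cdh1*) higher over wt, and 1 (*Tg*) was lower over siScramble. The 8 lower over wt include *Pax8* itself, the gene targeted by the siRNA. The shares called were 83.3% and 8.33%, beside 26.4% and 3.25% of all features. The median log2 ratio of the 12 was -0.55 over wt and -0.14 over siScramble. The summed intensity of these markers per array ran from 122000 to 137000 in si*Pax8* against 179000 to 227000 in wt. On the siScramble arrays it ran from 127000 to 141000 in si*Pax8* against 148000 to 197000 in siScramble. The sum is of unlogged intensities, so the brightest markers weigh most in it. The epithelial keratins *Krt8* and *Krt18* and the adhesion molecule *Epcam*, which are commonly used as epithelial markers, were not above background.

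Most markers of other cell types were not above background. Of 8 fibroblast markers with a probe, 1 (*Twist1*) was measured. *Twist2* was above background in 2 of 32 channels, and the defining *Dcn*, *Lum*, *Thy1*, *Pdgfrb*, *Prrx1* and *Fap* in 0. Summed intensities take only markers above background, so that of the fibroblast list is *Twist1* alone. It was 98.2 to 107 in si*Pax8* and 98.9 to 112 in wt, and 97.3 to 118 in si*Pax8* and 102 to 115 in siScramble. Of 5 endothelial markers 1 (*Esam*) was measured. The intensity of *Esam* alone was 102 to 115 in si*Pax8* and 105 to 130 in wt, and 94 to 113 and 96.8 to 109 on the siScramble arrays. *Kdr* was at 1 of 32 channels, and *Pecam1*, *Emcn* and *Cldn5* were at 0. Of 7 leukocyte markers 3 (*Cd68*, *Cd3d* and *Lyz2*) were measured, and *Cd68* was higher over wt (0.3 ± 0.12, limma adjusted p = 0.000705) and at 0 ± 0.09 over siScramble. The leukocyte sum was 493 to 559 in si*Pax8* and 441 to 502 in wt. On the siScramble arrays it was 504 to 532 in si*Pax8* and 489 to 538 in siScramble. Among the leukocyte markers not measured, *Csf1r* was above background in 14 of 32 channels, *Cd4* in 2, and *Itgam* and *Cd8a* in 0.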

How the data were processed

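For each array the authors deposited the scanner output, which holds fluorescence intensities of spots and of their local background in both dyes and marks for spots well above background, and for the series a table with normalized log2 ratios. The deposited log2 table held control over si*Pax8*: its correlation with the si*Pax8* over control ratios computed here was -0.999 to -0.992, and its column medians were -1e-04 to 0.0068. Agilent's processed intensities, deposited in the same files, were an alternative. Feature Extraction 10.1.1.1 is given in the headers.

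Members and gene lists were chosen with earlier results of these data known. Background correction by normexp (offset 50) in limma 3.58.1, run under R 4.3.3 (with statmod 1.5.0 and version 1.17.8 of data.table), was followed by loess within arrays, with control and outlier spots at weight 0, and quantile normalization. Probes were named through RefSeq accessions of GRCr8 (10768 of 41012 probes), of which only names and promoter sequences were used. Genes took the mean of their probes above background, and replicates the mean of both dye orientations. Each comparison was fitted with lmFit and eBayes on 4 replicates, and the difference on all 8. Deviations of dye-swapped arrays of the same number correlated from 0.11 to 0.51, so they were treated as pairs, although for replicate 2 over wt another number gave 0.15. Between the comparisons the correlations were 0.36, 0.15, 0.04 and 0.49, so pairing there was only an alternative. Replicate 3, at 0.04, correlated more with another number (0.34), so the replicate block may pair it wrongly.

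Replicate values are given for genes called in both comparisons, for *Fn1* and *Sparc*, and for genes called against wt. Those of *Itgb1*, outside this rule, were added after its spread was seen. Of each other list, up to 3 genes with the largest ratio against wt among those called are named, except for the interferon and thyroid lists. No interferon gene is named. The measured thyroid markers named are those higher over wt or called over siScramble, and *Pax8*. Each array had 45018 spots, of which 52% to 60.8% were well above background in a dye. The number of arrays limits the precision. The arrays lay on 4 slides, each with arrays of both comparisons. On simulated data, limma recovered 71.6% of features changed by 0.5 and 97% of those changed by 1 (log2) in the wt comparison. In the siScramble comparison these shares were 58.2% and 93.9%. Changes of 0.25 were recovered at 0% in the wt comparison and 1.5% in the siScramble comparison. The simulation changed fewer features than were called in either real comparison, so its adjusted threshold was stricter. Its shares therefore do not bound what the real fits could call. Against wt, *Col5a1* at -0.2 and *Fbn1* at 0.17 were called. Alternatives were the normalization, filter, probe rule, dye, slide, replicate block, threshold and left-out replicates.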

Additional observations from a re-analysis of the deposited data

Results flagged for a closer look

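In 4 sets of 4 replicates, 1 value stood apart from the other 3 by more than Dixon's limit, which chance gives in about 1 in 20 sets of 4. Replicate 1 of *Sparc* had the lowest log2 ratio over wt, 0.19, and over siScramble, 0.37. Over siScramble, replicate 2 of *Col4a4* was the highest at 0.5, and replicate 3 of *Itgb4* was the lowest at -0.42.

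The log2 ratio over wt was lower than that over siScramble by more than the replicate spread for *Fn1* (difference -0.3, limma adjusted p = 0.00295) and for *Itgb6* (difference -0.27, limma adjusted p = 0.00249). The si*Pax8* samples are drawn as shared by the 2 comparisons in the study's scheme, and the wt cells, unlike the siScramble cells, received no siRNA.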

How the results depend on the processing

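Against wt, 3 higher and 4 lower genes became 3 to 4 and 3 to 4 when 1 replicate was left out, and si*Pax8* in Cy3 alone called 2 lower, losing *Itga1* and *Col5a1*. Against siScramble, the 4 higher genes became 2 with Agilent's processed signals and 2 with si*Pax8* in Cy5 alone, and 0 to 4 with 1 replicate left out, with 0 without replicate 2 and without replicate 3. The 1 lower gene, *Itgb4*, became 0 with Agilent's signals, 0 with si*Pax8* in Cy3 alone and 0 to 0 with 1 replicate left out, and 2 with the slide block and 3 at an adjusted p below 0.05. The 2 genes that differed between the comparisons became 5 at 0.05, 0 to 0 with 1 replicate left out and 3 with the replicate block (*Itga1* added). The fitted correlation between arrays of the same slide was -0.45 over wt and -0.38 over siScramble, with no dye term in the fit. A negative correlation lowers the standard error of the mean, so the slide block called more readily. For the replicate block it was -0.15 and -0.12, and that block within a comparison changed no call of a member. *Col4a4*, *Itgb4*, *Itgb6* and *Lamb2* kept their calls against wt under every alternative run. The causes were not tested.

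Signs turned only where a gene was not called. Over wt these were *Col23a1* (-0.17 with Agilent's signals, and -0.01 without a filter, with Cy5 alone and without replicate 2 or 3), *Itga7* (0.01 without a filter, and -0.05 to 0 with 1 replicate left out) and *Itgb1* (-0.17 to 0.03 with 1 replicate left out). Over siScramble they were *Col1a2* (-0.01, Cy3 alone), *Col5a1* (0.01 with loess alone, 0.02 with all 32 channels, 0 without replicate 2 or 3), *Itga7* (0 without a filter, -0.02 with Cy3 alone), *Itgb1* (-0.13 with Cy3 alone, -0.1 to 0.22 with 1 replicate left out) and *Itgb3bp* (0.04, Cy5 alone). In the difference they were *Col1a2* (-0.02 to 0.08 with 1 replicate left out), *Itgb1* (-0.23 to 0.02) and *Lamb2* (-0.03 to 0.02).

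Over all features, 2625 were higher and 3127 lower against wt, which became 1532 and 1631 with Cy3 alone, 4000 and 4815 with the slide block, 4492 and 5520 at 0.05, and 1604 to 2726 and 1708 to 3341 with 1 replicate left out. Against siScramble, 433 higher and 275 lower became 208 and 131 with Agilent's signals, 412 and 172 with loess alone, 137 and 67 with Cy5 alone, 1470 and 1558 with Cy3 alone, 1393 and 1496 with the slide block, 862 and 763 with the replicate block, 803 and 797 with both comparisons in 1 fit, 1571 and 1813 at 0.05, and 89 to 266 and 37 to 106 with 1 replicate left out. The difference (610 and 679) became 1004 and 1065 with the replicate block, 2100 and 2135 at 0.05, and 152 to 414 and 157 to 429 with 1 replicate left out.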
